A study of Homo sapiens and Homo sapiens
Mus musculus and Mus musculus with 9 samples.

Results

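The neuroendocrine lineage genes described here are CHGA, CHGB, SCG2, SYP, ENO2, NCAM1, INSM1, SRRM4 and REST. These 9 genes were chosen by name, as the rows with these symbols among the 41713 genes of the deposited table, of which 19939 are protein-coding. RNA-Seq was performed on C4-2B, an established line of human prostate cancer cells, cultured alone (3 libraries), and on the same cells mixed with mouse osteoblasts of the line MC3T3-E1 at 1 to 30 (co-culture, 3 libraries). MC3T3-E1 cells alone (3 libraries) were not analysed here. Both lines carry the genotype label WT. The RNA of the co-culture was extracted without separating the cells, so its libraries hold reads of both species, and each cell type is represented by a single line. Nothing in the labels says that the 3 libraries of a group came from separate cultures. The purpose of the RNA-Seq was to find how osteoblasts change the transcriptome of the cancer cells.

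Neuroendocrine cells are secretory epithelial cells that share much of their gene program with neurons. They pack hormones and granins such as chromogranin A (CHGA), chromogranin B (CHGB) and secretogranin II (SCG2) into dense-core granules. They also carry the vesicle protein synaptophysin (SYP), the neuronal enolase ENO2 and the adhesion molecule NCAM1, which is also known as CD56. Luminal prostate cancer cells normally keep this program low, and prostate tumours that escape hormone therapy can gain it. The zinc finger factor INSM1 drives neuroendocrine differentiation. REST is the repressor that holds neuronal genes off in other cells, and SRRM4 is a splicing factor that, when active, shifts REST to a truncated isoform with little repressor activity.

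The deposited table gives a mean count for each gene and pipeline, that is, the authors' mean of the size-factor-normalised counts over the libraries of both groups. The table also holds the authors' own statistics for the co-culture against C4-2B alone, which were not used, so no comparison between the groups is made here. The 3 pipelines differ in how human reads were told from mouse reads. Xenome sorted the reads by species ahead of alignment, XenofilteR removed mouse reads after alignment to both genomes, and Kallisto assigned reads to the joined human and mouse transcriptomes. They read the same libraries, so they are not replicates, and a difference between them has no test.

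A read can be told from its mouse counterpart only where the sequences differ. Therefore the longest coding stretch that is identical to the mouse gene of the same name is shown first for 5 of the genes. Only stretches within a single exon were searched. The sequences come from the GENCODE release 44 annotation on GRCh38 and release M21 for mouse. Exon numbers here and below are those of the canonical transcript, and a gene can have further exons. They are written 5′ to 3′ on the strand of the gene, and capitals mark the identical bases, with up to 10 flanking coding bases in lower case. ENO2 has 59 such bases in exon 8 of 12, SCG2 has 38 in exon 2 of 2, and SYP has 45 in exon 6 of 7. INSM1 has 62 in its single exon, and REST has 35 in exon 4 of 4. Within single exons, no coding stretch of 31 or more bases of CHGA, CHGB or SRRM4 was identical to its mouse counterpart. Stretches across exon junctions were not searched.
ENO2 (chr12:6919682-6919760, plus strand): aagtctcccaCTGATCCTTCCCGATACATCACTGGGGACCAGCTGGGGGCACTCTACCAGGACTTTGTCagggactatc
SCG2 (chr2:223598209-223598266, minus strand): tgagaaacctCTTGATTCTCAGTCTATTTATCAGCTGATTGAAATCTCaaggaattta
SYP (chrX:49191465-49191529, minus strand): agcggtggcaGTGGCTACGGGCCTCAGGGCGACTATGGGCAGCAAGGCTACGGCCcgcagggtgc
INSM1 (chr20:20369152-20369233, plus strand): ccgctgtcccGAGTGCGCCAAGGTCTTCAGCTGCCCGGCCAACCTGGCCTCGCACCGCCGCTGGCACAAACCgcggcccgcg
REST (chr4:56931849-56931903, plus strand): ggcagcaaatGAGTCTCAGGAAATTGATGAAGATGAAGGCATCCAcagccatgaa

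Whole reads in each library were solved from the Xenome and XenofilteR means, which are sums of reads divided by 6 size factors. The 6 libraries are numbered here from the deepest to the shallowest. The table ties no solved library to a sample, so none was placed in a group. For Xenome the size factors were 5.93, 5.31 and 4.86 for libraries 1 to 3 and 0.427, 0.145 and 0.109 for libraries 4 to 6. A read in library 1 therefore counts for 0.169 of a normalised read, and a read in library 6 for 9.18. The intervals given below are 95% exact Poisson intervals and cover counting error only. For a count of 0 they reach 8.65, 25.5 and 33.9 normalised counts in libraries 4, 5 and 6, at or above the whole mean count of CHGA, SCG2, NCAM1 and SRRM4.

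As a check of the cells, the prostate luminal markers were high. The 9 of the list that were analysed, which include KLK3 (prostate-specific antigen) and FOLH1 (prostate-specific membrane antigen), had Xenome means from 4603 to 51038. Of the 10 osteoblast markers, 4 had a Xenome mean of at least 10, against 74.9% of the protein-coding genes listed by Xenome. The summed mean of the list was 3924 for Xenome, 5381 for XenofilteR and 3229 for Kallisto. The collagen gene COL1A1 made up most of it, with 3384 for Xenome, 4557 for XenofilteR and 2471 for Kallisto. COL1A2 had 1, 0, 0, 12, 19 and 12 reads in libraries 1 to 6 with Xenome, whereas BGLAP (osteocalcin) had 39, 28, 19, 0, 1 and 0. The part of mouse reads in the values of the neuroendocrine genes was not tested.

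The granins among the 9 genes were low. CHGA (ENSG00000100604, chr14:92923150-92935285, plus strand, 8 exons) had a mean count of 6.03 with Xenome, 5.996 with XenofilteR and 4.64 with Kallisto. With Xenome this was more than 22.2% of the protein-coding genes listed. Libraries 1 to 6 held 59, 36, 27, 2, 0 and 1 reads of CHGA, or 125 in all, and XenofilteR differed by 1 read in library 1. The normalised counts were 9.96, 6.77, 5.55, 4.69, 0 and 9.18. Libraries 1 to 3 carried almost all of the reads, and the value of library 6 rests on 1 read. SCG2 (ENSG00000171951, chr2:223596940-223602361, minus strand, 2 exons) had a mean count of 4.85 with Xenome, 4.88 with XenofilteR and 4.83 with Kallisto. Its reads were 37, 42, 28, 0, 0 and 1, which gave 6.24, 7.90, 5.76, 0, 0 and 9.18 normalised counts. The intervals of the zeros in libraries 4 and 5 reach above the values of libraries 1 to 3, so a difference from the level of libraries 1 to 3 was not detectable at this depth. CHGB (ENSG00000089199, chr20:5911510-5925353, plus strand) was not listed by Xenome or XenofilteR and stood at 0 with Kallisto. The lowest mean that Xenome lists equals 2 reads in library 1, so a gene that is not listed may still have had a stray read.

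SYP, a membrane protein of synaptic and secretory vesicles, was measured in every library. The gene (ENSG00000102003, chrX:49187804-49200259, minus strand, 7 exons) had a mean count of 77.9 with Xenome, 78.3 with XenofilteR and 108 with Kallisto. Its Xenome reads were 514, 472, 436, 42, 11 and 3. The normalised counts were 86.7, 88.8, 89.7, 98.5, 76.0 and 27.6. Libraries 1 to 5 lay close together, and library 6 was the lowest, with 3 reads and an interval from 5.68 to 80.5. Without library 6 the Xenome mean was 87.9. The Kallisto mean was 1.38 times the Xenome mean, where this and all later ratios are taken on means plus 1.

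ENO2, the glycolytic enzyme used in the clinic as neuron-specific enolase, had the highest mean count of the members other than REST with Xenome and XenofilteR, and with Kallisto it was just under SRRM4. Its mean count (ENSG00000111674, chr12:6913745-6923698, plus strand, 12 exons) was 154 in both alignment pipelines and 160.03 with Kallisto. The Xenome mean can be written as whole reads in 49 ways and the XenofilteR mean in 45. In only 1 pair of solutions did the pipelines stay within 10 reads of each other in every library, with a largest difference of 3 reads. That pair gives 1096, 844, 771, 45, 22 and 18 reads with Xenome, or 185, 159, 159, 105 and 152 normalised counts in libraries 1 to 5 and 165 in library 6. Library 4 was the lowest, with an interval from 76.9 to 141, and library 1 the highest. Leaving out each library in turn kept the mean between 148 and 164.

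NCAM1, a surface adhesion molecule of neurons and neuroendocrine cells, was low with the alignment pipelines and not with Kallisto. The gene (ENSG00000149294, chr11:112961247-113278436, plus strand, 20 exons) had a mean count of 8.65 with Xenome and 8.62 with XenofilteR against 81.7 with Kallisto. The reads with Xenome were 36, 45, 46, 6, 2 and 0, and the normalised counts were 6.07, 8.47, 9.46, 14.1, 13.8 and 0. Libraries 4 and 5 had the highest values, from 6 and 2 reads, and gave, with library 6, 53.7% of the mean. Antisense genes overlap 7.89% of the exonic bases of NCAM1. The libraries were stranded, but the strand setting of the counting is not given in the sources used here.

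INSM1 (ENSG00000173404, chr20:20368104-20370949, plus strand), a transcription factor of neuroendocrine differentiation, was not listed by Xenome or XenofilteR and stood at 0 with Kallisto. With CHGB it was 1 of 2 members with no value above 0 in any pipeline. Of 19939 protein-coding genes, 1188 stood at 0 with Kallisto and 17827 were listed by Xenome. Of the 9 genes INSM1 also shared the most sequence with mouse, at 13.0% of its 31-base sequences over all transcripts, a share above that of 99.4% of protein-coding genes.

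SRRM4 gave a different value with each pipeline. The gene (ENSG00000139767, chr12:118981541-119163051, plus strand, 13 exons) had a mean count of 2.78 with Xenome, 10.0 with XenofilteR and 168 with Kallisto. With Xenome its reads were 35, 15, 16, 2, 0 and 0, and the normalised counts 5.91, 2.82, 3.29, 4.69, 0 and 0. With XenofilteR the reads were 34, 15, 16, 2, 1 and 4, and the normalised counts 5.73, 2.82, 3.28, 4.69, 6.92 and 36.8. The pipelines differed by at most 1 read in libraries 1 to 5, and the 4 reads of library 6 made up 61.1% of the XenofilteR mean. The XenofilteR value in that library had an interval from 10.0 to 94.2. XenofilteR gave 2.92 times the Xenome mean, a gap of 2-fold or more that 0.404% of 17808 protein-coding genes showed between these pipelines. No other member showed it. Without library 6 the means were 4.69 with XenofilteR and 3.34 with Xenome, which are less than 2-fold apart, so the gap rests on that library.

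REST had by far the highest mean count of the 9 genes in each pipeline. Its mean count (ENSG00000084093, chr4:56907876-56966678, plus strand, 4 exons) was 3786 for Xenome, 3810 for XenofilteR and 3842 for Kallisto, and the Xenome value lay above 84.3% of the protein-coding genes listed. Whole reads were not solved for a mean of this size, so REST has no value per library. The pipelines differed by less for REST than for SYP, with a Kallisto mean 1.01 times the Xenome mean. The table is per gene, so the truncated and the full-length isoforms of REST cannot be told apart.

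**Figure D1:**
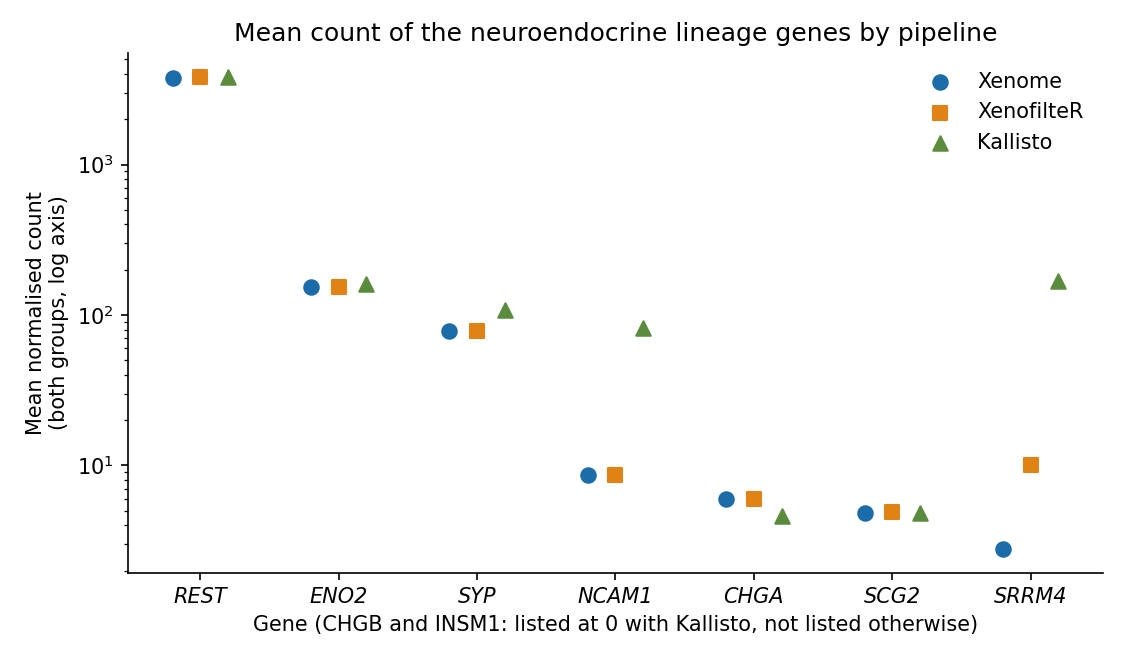
Mean normalised count over both groups (log axis) of each gene with Xenome (circles), XenofilteR (squares) and Kallisto (triangles), without error bars because the table gives no spread. The symbols of REST, ENO2, SCG2, CHGA and SYP lie close together, whereas the Kallisto symbol stands far above the others for NCAM1 (81.7 against 8.65) and SRRM4 (168 against 2.78).

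**Figure D2:**
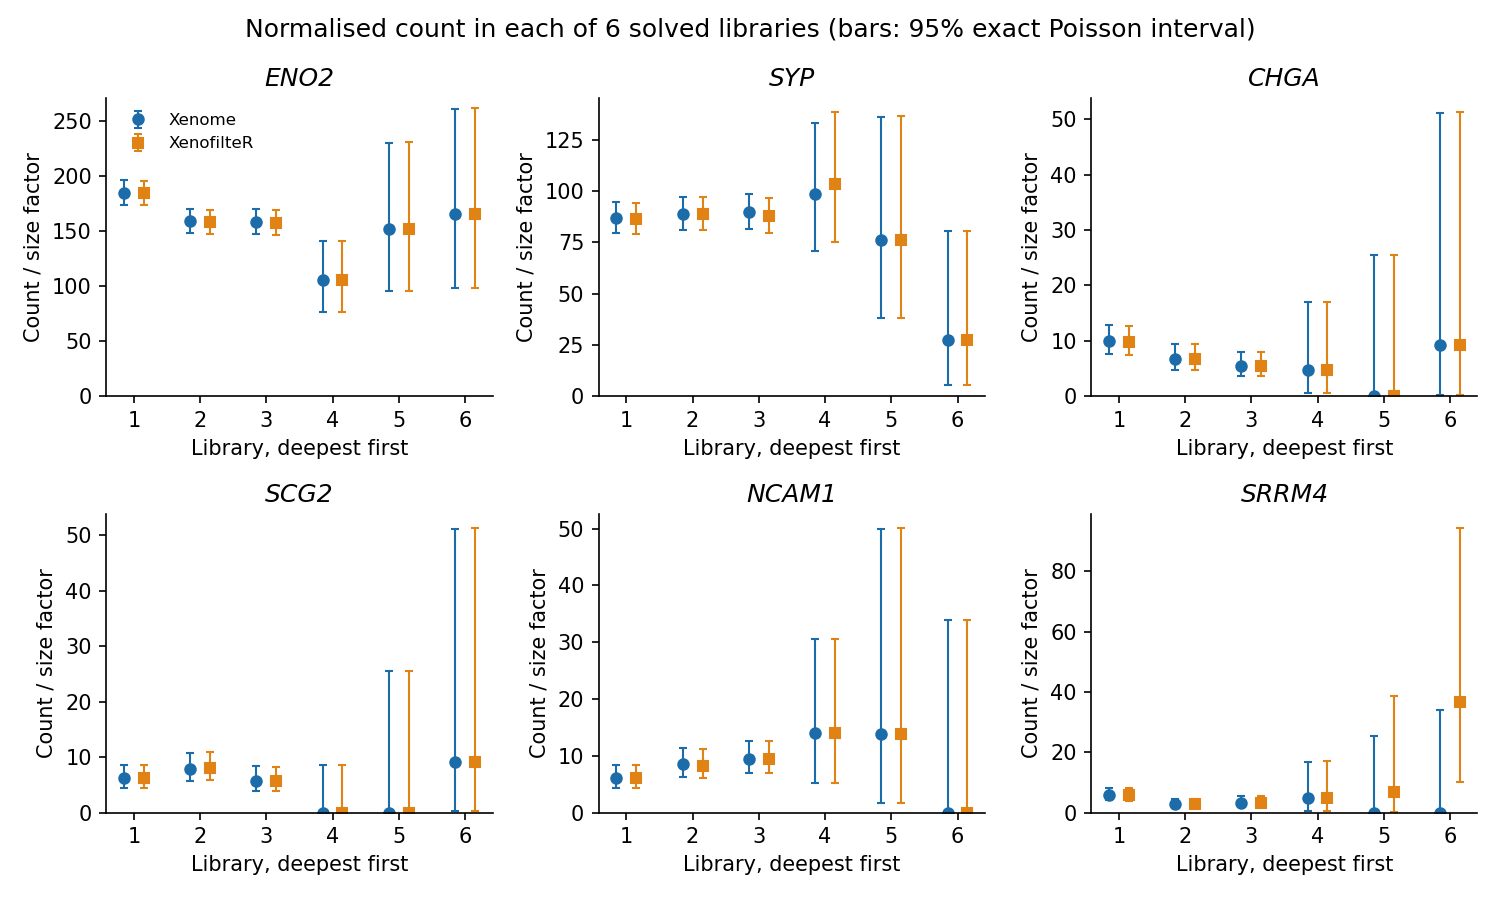
Normalised count in each of 6 libraries, numbered from the deepest to the shallowest, for the 6 genes whose reads were solved, with Xenome (circles) and XenofilteR (squares); bars are 95% exact Poisson intervals. The points of the pipelines lie close together in most libraries and farthest apart in library 6 of SRRM4 (0 against 36.8, with overlapping intervals), and the intervals widen from library 4 on.

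Kallisto and Xenome differed by 2-fold or more for 2 of the 7 genes that both list, NCAM1 and SRRM4. Over all 17827 protein-coding genes listed by both, 17.7% differed by that much, and 16.7% were higher with Kallisto. For genes with a Xenome mean from 1 to 10, the range that holds NCAM1, CHGA, SCG2 and SRRM4, the share higher with Kallisto was 41.4%. Having 2 of these 4 genes above 2-fold is near that background and is not a result about the neuroendocrine genes as a group. The sizes were 8.57-fold for NCAM1, or 3.10 on the log2 scale, a ratio above that of 93.2% of the genes, and 44.6-fold for SRRM4, or 5.48 on the log2 scale, above 98.2%. A ratio at least as large as that of SRRM4 was found for 329 genes. The median ratio was 1.03 over all genes and 1.04 over the 7. CHGA was the member lowest against Xenome, at 0.803, and SCG2 was at 0.996. Over 11580 genes with a mean of at least 50 in both, the median mean count was 1.11 times as high with Kallisto, and with the medians set equal the same 2 genes differed by 2-fold or more.

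**Figure D3:**
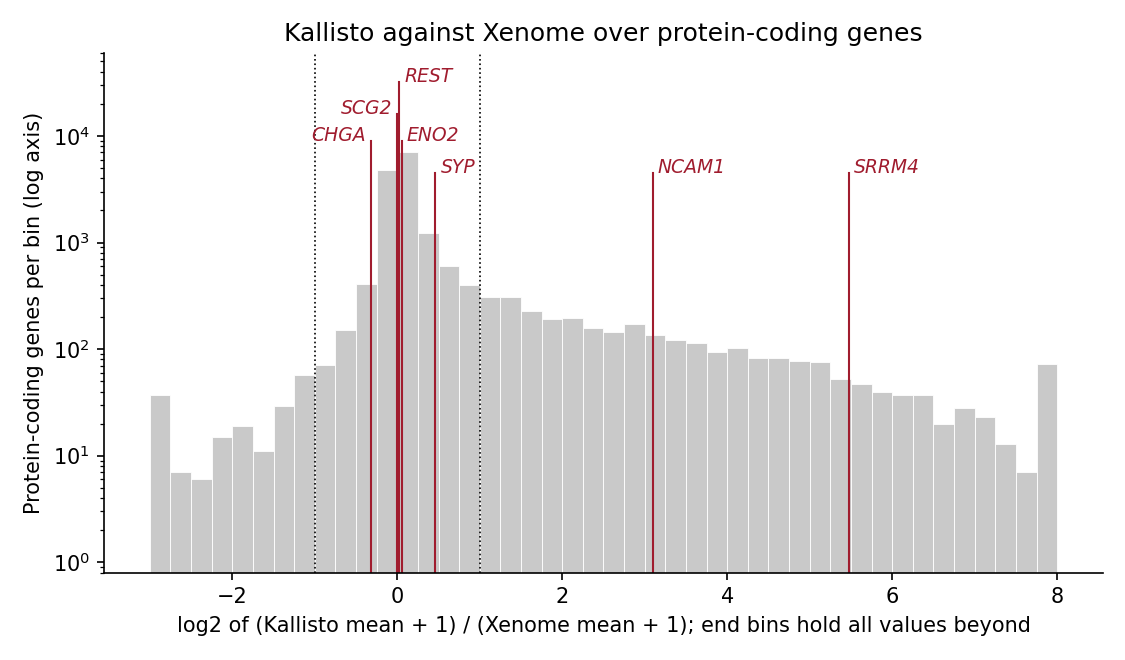
Histogram of the log2 ratio of Kallisto to Xenome means plus 1 over 17827 protein-coding genes (log count axis, end bins hold all values beyond), with red lines for the 7 neuroendocrine lineage genes listed by both and dotted lines at a ratio of 2 in either direction. SRRM4 (5.48) and NCAM1 (3.10) lie in the long right tail, and the other 5 genes lie between the dotted lines.

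The members differed in how much sequence they share with mouse. Of all 31-base sequences in the transcripts of a gene, mouse transcripts also held 0.614% for SRRM4 and 3.11% for NCAM1, against 4.30% for ENO2, 1.56% for SYP, 1.32% for SCG2, 0.390% for CHGA and 0.346% for REST. The share of NCAM1 was the second highest of these 7 and above that of 88.4% of protein-coding genes, and the share of SRRM4 was above that of 54.5%. In the canonical transcript of SRRM4, 101 of 8401 sequences occurred in some mouse transcript, 13 of them in that of mouse Srrm4, and 1.45% of the untranslated sequences were shared against 0.333% of the coding ones. The longest run of untranslated SRRM4 sequences that each occur in some mouse transcript is 78 bases, a CT-rich repeat of the 3′ UTR. The 31-base sequences of this run need not lie in the same mouse gene. The first of them occurs in 3 mouse genes other than Srrm4. In NCAM1 the longest such run is 119 bases in the 3′ UTR, and its first 31 bases occur in mouse Ncam1. Across all genes the median share was 0.388% for 2943 genes at least 2-fold higher with Kallisto and 0.590% for the other 14841, and Spearman's rho between ratio and share was 0.041 across 17784 genes, which are not independent replicates. The part of shared sequence in the gaps of NCAM1 and SRRM4 was not tested.

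**Figure D4:**
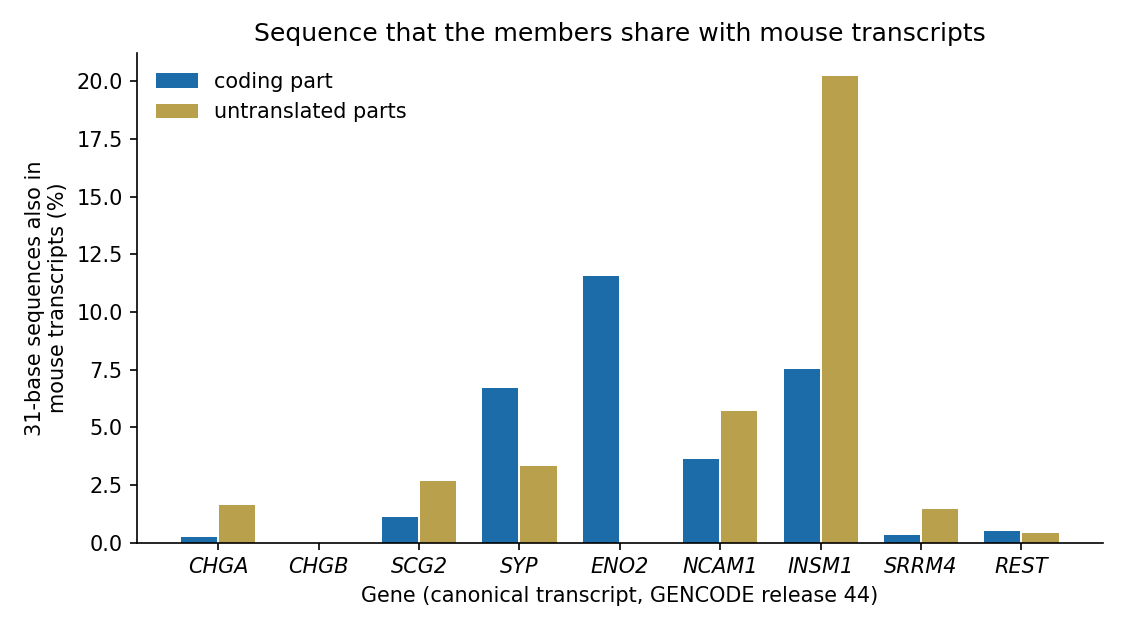
Percent of the 31-base sequences of each canonical transcript that also occur in mouse transcripts, for the coding part (blue bars) and the untranslated parts (tan bars), from 0 on a linear axis. INSM1 has the tallest bar (20.2%, untranslated), ENO2 the tallest coding bar (11.6%), and SRRM4 is at 0.333% and 1.45%.

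Levels between genes were compared per kilobase of exon. With Xenome the order of mean counts per kb was REST (402), ENO2 (36.0), SYP (11.2), CHGA (1.99), SCG2 (1.88), NCAM1 (0.681) and SRRM4 (0.228). The lengths of the canonical transcripts gave the same order but raised the levels of 4 genes by over 1.5 times, to 67.2 per kb for ENO2, 32.2 for SYP, 3.04 for CHGA and 1.49 for NCAM1. Neighbours in this order were compared in libraries 1 to 3, since the counting intervals of several genes overlap in libraries 4 to 6. There ENO2 ranged from 37.0 to 43.2 per kb and SYP from 12.4 to 12.9 per kb, without overlap. CHGA ranged from 1.84 to 3.29 per kb and SCG2 from 2.23 to 3.07 per kb, so these neighbours overlapped, and both lay below SYP. NCAM1 ranged from 0.479 to 0.745 per kb, below CHGA and SCG2, and just overlapped SRRM4 at 0.231 to 0.483 per kb. With XenofilteR SRRM4 (0.821 per kb) came before NCAM1 (0.679 per kb), but without library 6 the values were 0.384 and 0.815 per kb in the reverse order. With Kallisto the lower end of the order changed further, with SRRM4 at 13.7 per kb and NCAM1 at 6.43 per kb above SCG2 at 1.87 and CHGA at 1.54.

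The genes around this program were read from lists of known members. Of 12 neuroendocrine transcription factors, Xenome listed 10. Of these 10, 4 had a mean of at least 10, a level that 74.9% of the protein-coding genes listed by Xenome reached. ONECUT2 (2192), LHX2 (224) and SOX11 (138) were highest. For NEUROD1, a proneural factor, 10, 2, 7, 0, 0 and 0 reads gave a mean of 0.584 with Xenome against 126 with Kallisto, and PROX1 had 2.71 against 49.7. Kallisto was 2-fold or more above Xenome for 5 of the 10, beside the 16.7% of all protein-coding genes and the 41.4% of those with a Xenome mean from 1 to 10 given above.

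Against 74.9% of the protein-coding genes listed by Xenome, 5 of 8 other granin and secretory granule genes had a Xenome mean of at least 10. These included carboxypeptidase E (CPE, 1220), which trims prohormones, the amidating enzyme PAM (537) and the granin VGF (470.26). The prohormone convertases PCSK1 and PCSK2 had means of 3.75 and 0.353. SCG3, a further granin, was the 1 gene of the 8 that was 2-fold higher with Kallisto, beside 16.7% of all protein-coding genes. SCG3 had 33 reads and a mean of 1.01 with Xenome against 34.2 with Kallisto.

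Among 8 genes of synaptic vesicles and release, 5 had a Xenome mean of at least 10, beside 74.9% of the protein-coding genes listed by Xenome. Among the 5 were the synaptotagmin SYT4 (47536) and the vesicle SNARE VAMP2 (1762). SNAP25, the SNARE of the neuronal plasma membrane, had 8 reads in all. None of the 8 was 2-fold higher with Kallisto, beside 16.7% of all protein-coding genes. Of 9 neuroendocrine surface and cytosolic genes, Xenome listed 8 and 4 of these had a mean of at least 10, against the same 74.9%. The Notch ligand DLL3 was at 444, the neuronal tubulin TUBB3 at 33.5 and the ubiquitin hydrolase UCHL1 at 14.3. Kallisto was 2-fold or more above Xenome for 4 of the 8 that Xenome listed, against the same shares of 16.7% and 41.4%. TUBB3 was at 279 with Kallisto. CEACAM5 had 2 reads with Xenome and a mean of 26.5 with Kallisto, and ELAVL3 had a mean of 1.60 against 11.6.

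Of 7 neural splicing genes other than SRRM4, 6 had a Xenome mean of at least 10, beside 74.9% of the protein-coding genes listed by Xenome. PTBP1, the splicing repressor of non-neuronal cells, was highest at 22808, ahead of RBFOX2 at 3050 and NOVA1 at 2405. The SRRM4 paralogue SRRM3 had 147, 87, 99, 5, 4 and 4 reads with Xenome, more than SRRM4 in each library of that pipeline, and a mean of 22.9 with Xenome and 23.0 with Kallisto. NOVA2 was the 1 gene of the 7 that was 2-fold higher with Kallisto, beside 16.7% of all protein-coding genes. NOVA2 had 5 reads with Xenome and a mean of 14.4 with Kallisto. All 11 REST corepressors had a Xenome mean of at least 10, beside the same 74.9%. None was 2-fold apart between Kallisto and Xenome, beside 17.7% of all protein-coding genes. The deacetylases HDAC1 (9720) and HDAC2 (8703) and the scaffold SIN3A (5604) were highest, and RCOR2, the corepressor of neural progenitors, was lowest at 18.8.

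**Figure D5:**
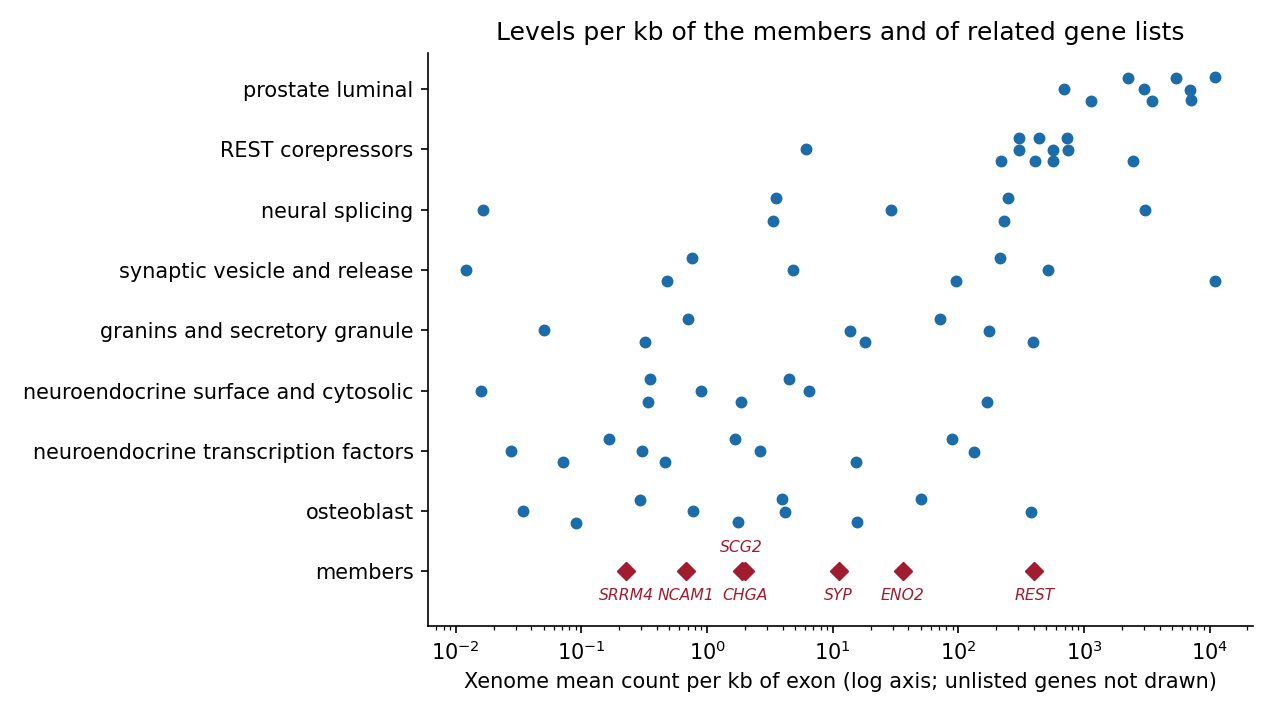
Xenome mean count per kb of exon (log axis) of the genes of each list (blue circles, 1 per gene) and of the members, that is, the neuroendocrine lineage genes (red diamonds); unlisted genes are not drawn. REST (402) lies among its corepressors, and SRRM4 (0.228) and NCAM1 (0.681) are the lowest of the members drawn.

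REST binds a composite element whose left and right parts were searched, on both strands, as the letters TTCAGCACC and GGACAGCG in promoters taken from 250 bases before to 50 bases after each gene start. RefSeq promoters on GRCh38.p14 were matched for 5 of the 9 genes, and the others were not searched. The left part was found in none of the 5 and in 0.376% of 35116 promoters. With so rare a match, its absence from 5 promoters says nothing about these genes. The right part was found in the promoter of REST itself, 170 bases before the RefSeq start site used there, which lies inside the gene span given above, and in 1.63% of all promoters. The genes of the lists were searched as well, and the right part was also found for SCG3, VGF, PCSK2 and SRRM3. SCG3 held the left part too, 8 bases after its start site, with the right part at 25 bases. How many genes of the lists had a matched promoter was not counted. A match of these letters is a description of the sequence and not a binding site.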

How the data were processed

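RNA-Seq libraries (50 bp, paired-end, at least 40 M reads each) were made from 500 ng of total RNA with a stranded mRNA kit. For Xenome the authors aligned the sorted human reads with HISAT2 to GRCh38. For XenofilteR they aligned the reads with HISAT2 to GRCh38 and to the mouse genome, and then removed mouse reads. Human reads of both were counted with featureCounts, and Kallisto quantified reads without these steps. The deposited mean count is the authors' mean, over both groups, of counts divided by DESeq2 size factors. The deposited fold changes, errors, statistics and p-values hold the authors' comparison of the co-culture with C4-2B alone and were not used. The table analysed here has 0 columns of values per sample. Of 41734 rows, 21 repeated a gene and were dropped.

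Whole reads were solved from the means with 6 size factors found from the most frequent differences between low means, after a test on simulated data. Of 3000 genes checked with a mean under 10, 3000 (Xenome) and 2999 (XenofilteR) had 1 solution. Kallisto estimates and REST were not solved. Ratios used means plus 1. The named genes are the 9 members and, from each list, the 3 with the highest Xenome mean and those at least 4-fold apart between Kallisto and Xenome with a higher mean of at least 10. Some of these are not reported here. BGLAP, PCSK1, PCSK2, SNAP25, SRRM3 and RCOR2 fall outside this rule and were chosen after their values were seen, as was the comparison of levels per kb within libraries 1 to 3. The members and lists were chosen with earlier results of these data known. Exon lengths, coordinates of sequences and shared 31-base sequences came from GENCODE. Alternatives were other pipelines, pseudocounts, folds, filters, scaling and lengths, each library left out, and, chosen after seeing the data, genes with a Xenome mean from 1 to 10. The software was matplotlib 3.10.9, numba 0.67.0, scipy 1.17.1, pandas 2.3.3 and numpy 2.4.6 under python 3.11.15.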

Additional observations from a re-analysis of the deposited data

How the results depend on the processing

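The count of neuroendocrine lineage genes that differed by 2-fold or more between Kallisto and the alignment pipelines was 2, and the genes were NCAM1 and SRRM4, under pseudocounts of 0.5 and 5, a fold of 4, a higher mean of at least 10, XenofilteR as the base and equal medians. With all genes as background, or only those with a Xenome mean from 1 to 10, the count was 2 as well, but these settings change the background and could not add or remove either gene. No paired analysis was possible because the table gives no values per sample, the solved libraries carry no replicate number and no test between groups was made. Leaving out each of the 6 libraries in turn gave Xenome means from 5.24 to 7.23 for CHGA, 3.98 to 5.82 for SCG2, 73.8 to 87.9 for SYP, 148 to 164 for ENO2, 7.56 to 10.4 for NCAM1 and 2.16 to 3.34 for SRRM4. The XenofilteR mean of SRRM4 ranged from 4.69 to 11.5, and the lowest was that without library 6. Against Xenome, the mean counts that changed most were those of SYP, NCAM1 and SRRM4 with Kallisto and that of SRRM4 with XenofilteR. In library 6 the XenofilteR value of SRRM4 (36.8) lay above the Xenome interval (0 to 33.9). Both pipelines read the same libraries, so the counting intervals do not measure the error of their difference. The cause of these changes was not tested. The lengths of the canonical transcripts raised the level per kb to 3.04 for CHGA, 32.2 for SYP, 67.2 for ENO2 and 1.49 for NCAM1 by construction, since these transcripts are shorter than all exons joined. Depth limits CHGA, SCG2, NCAM1 and SRRM4 most, with 3, 1, 8 and 2 Xenome reads in libraries 4 to 6 together.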

Other observations

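Osteoblast genes other than COL1A1 also had reads that the pipelines assigned to human. POSTN, a matrix protein of osteoblasts, had 0, 0, 0, 1, 2 and 1 reads in libraries 1 to 6 with Xenome and 0, 0, 0, 1, 7 and 0 with XenofilteR. SPARC, a collagen-binding matrix protein, had a mean count of 72.0 for Xenome and of 142 for XenofilteR and Kallisto. COL1A2 had a mean count of 45.0 for Xenome, 264 for XenofilteR and 222 for Kallisto. Other osteoblast genes had most of their Xenome reads in libraries 1 to 3. BGLAP (osteocalcin) had 39, 28, 19, 0, 1 and 0 reads, IBSP (bone sialoprotein) 31, 8, 14, 0, 1 and 0, and the transcription factor SP7 15, 7, 10, 0, 0 and 0. The osteoblast genes ALPL (3 reads) and SPP1 (10 reads) were close to 0 over all 6 libraries with Xenome.

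For CPLX2, a complexin that binds the SNARE complex, XenofilteR and Xenome differed in libraries 5 and 6 alone. Its reads were 11, 16, 8, 2, 0 and 1 with Xenome and 11, 16, 8, 2, 3 and 2 with XenofilteR, and its mean counts were 3.40 and 8.39. COL1A1, COL1A2 and SPARC fall under the naming rule given above. The other genes of this section were chosen after their values were seen, as was the reporting of COL1A2 reads.

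The 6 solved libraries fell into 3 with Xenome size factors from 4.86 to 5.93 and 3 with size factors of 0.427, 0.145 and 0.109. The table gives no group for any of them.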
